A study of Mus musculus with 4 samples.

Results

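The regions described here carry acetylation of lysine 27 of histone H3 (H3K27ac), a mark of active promoters and enhancers, at the starts of long noncoding RNA genes in mouse calf muscle. They were chosen from the replicated peak list by position alone. A region of chromosomes 1 to 19 qualified if it lay within 1000 bp of a transcript start of a GENCODE M21 gene typed lincRNA, antisense, sense_intronic, bidirectional_promoter_lncRNA or processed_transcript, and more than 2500 bp from every protein-coding transcript start. The rule found 1905 regions, 2.30% of the 82994 regions on these chromosomes (84452 on all chromosomes), at the starts of 1582 genes. No signal value entered the choice.

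The tissue was gastrocnemius, a fast-twitch calf muscle, taken from females of B6CASTF1/J, a hybrid strain, as adults at 2 months of age. All 4 libraries belonged to this group. Pool F (replicate 1) and pool E (replicate 2) each combined 2 tissue samples, and each gave 2 technical libraries. The deposited lists combine technical replicates, so n = 2. The libraries' depth was not given in the sources used here, and whole muscle holds vessels and connective tissue as well as fibres. All 8 skeletal muscle markers examined had a region at a start, as did 4 of 4 endothelial and 3 of 3 fibroblast markers, against 0 of 4 heart, 0 of 4 hepatocyte, 0 of 4 leukocyte and 1 of 4 neuronal markers. In a bulk sample, fewer cells of a type and less acetylation per cell cannot be told apart.

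Long noncoding RNAs are transcripts without a recognised protein product. Intergenic ones (lincRNAs) stand apart from coding genes, antisense ones are read from the opposite strand of another gene, sense intronic ones lie within an intron, and bidirectional ones start back to back with a coding gene. Some act as RNAs, such as Malat1 and Neat1 in nuclear bodies, and others mainly carry microRNAs or small nucleolar RNAs that are cut from the transcript. In muscle, such host transcripts supply the myogenic microRNAs. Many promoters of widely used genes are rich in the dinucleotide CG, whereas many tissue-restricted promoters are poor in it. H3K27ac was measured at the starts and no RNA was measured, so the values below describe chromatin and not transcript levels.

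Member starts ran from very rich to very poor in CG, and 6 windows show this range. Each is read on the gene's strand from 250 bp before the start to 50 bp from it onwards (300 bases, GRCm38, the same assembly as mm10), with every CG in capitals. The ratio of observed to expected CG is 1 where CG is as frequent as its C and G contents give. The richest is 1810026B05Rik (Chaserr in RefSeq), read from the minus strand of chr7:73557924-73558223, which has 45 CG and a ratio of 1.07. The next are Snhg12, on the plus strand of chr4:132308428-132308727 with 18 CG and a ratio of 0.859, and H19, on the minus strand of chr7:142578094-142578393 with 15 CG and a ratio of 0.5995.
1810026B05Rik: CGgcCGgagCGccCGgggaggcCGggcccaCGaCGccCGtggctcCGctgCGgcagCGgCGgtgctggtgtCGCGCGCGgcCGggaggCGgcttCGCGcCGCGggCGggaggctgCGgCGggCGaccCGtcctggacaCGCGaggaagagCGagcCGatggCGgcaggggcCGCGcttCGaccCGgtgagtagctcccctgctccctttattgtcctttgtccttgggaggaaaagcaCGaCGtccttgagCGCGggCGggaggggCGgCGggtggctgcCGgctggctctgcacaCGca
Snhg12: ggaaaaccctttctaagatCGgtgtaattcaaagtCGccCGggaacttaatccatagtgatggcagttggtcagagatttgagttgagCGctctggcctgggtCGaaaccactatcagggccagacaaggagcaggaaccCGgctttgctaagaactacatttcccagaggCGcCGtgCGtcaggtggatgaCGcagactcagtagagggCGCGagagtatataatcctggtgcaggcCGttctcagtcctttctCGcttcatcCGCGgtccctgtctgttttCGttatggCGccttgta
H19: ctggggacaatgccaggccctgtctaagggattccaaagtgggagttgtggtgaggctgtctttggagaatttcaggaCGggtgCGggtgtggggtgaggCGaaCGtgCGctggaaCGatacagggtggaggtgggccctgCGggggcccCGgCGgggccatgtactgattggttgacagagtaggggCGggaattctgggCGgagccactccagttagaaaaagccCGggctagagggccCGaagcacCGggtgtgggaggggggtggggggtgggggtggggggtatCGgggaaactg
The other 3 windows have fewer. Mir22hg, on the plus strand of chr11:75461289-75461588, has 12 CG and a ratio of 0.541. Malat1, on the minus strand of chr19:5802623-5802922, has 10 CG and a ratio of 0.604. Gm28653, which holds the genes of the muscle microRNAs miR-206 and miR-133b, lies on the plus strand of chr1:20669632-20669931 and has only 2 CG, for a ratio of 0.227.
Mir22hg: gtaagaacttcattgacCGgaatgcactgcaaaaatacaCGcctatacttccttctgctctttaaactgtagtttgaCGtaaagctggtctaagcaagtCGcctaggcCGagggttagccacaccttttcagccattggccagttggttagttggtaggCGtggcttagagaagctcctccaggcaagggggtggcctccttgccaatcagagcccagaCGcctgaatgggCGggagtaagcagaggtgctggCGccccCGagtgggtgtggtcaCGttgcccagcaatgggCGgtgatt
Malat1: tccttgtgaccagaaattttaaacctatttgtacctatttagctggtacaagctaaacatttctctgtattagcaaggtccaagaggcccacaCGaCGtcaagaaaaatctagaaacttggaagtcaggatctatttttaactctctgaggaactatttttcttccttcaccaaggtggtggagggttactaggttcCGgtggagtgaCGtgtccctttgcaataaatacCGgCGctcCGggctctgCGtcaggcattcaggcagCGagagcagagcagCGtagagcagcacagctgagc
Gm28653: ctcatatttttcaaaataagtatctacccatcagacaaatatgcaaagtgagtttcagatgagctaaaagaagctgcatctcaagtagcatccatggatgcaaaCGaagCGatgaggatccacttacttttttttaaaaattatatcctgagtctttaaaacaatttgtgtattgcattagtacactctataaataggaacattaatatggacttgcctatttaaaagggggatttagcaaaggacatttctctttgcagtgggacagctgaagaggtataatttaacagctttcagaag
Of these 6 windows, GC boxes (GGGCGG or its reverse complement) occurred 3 times in that of 1810026B05Rik and 2 times each in those of Mir22hg and H19. A match to TATAAA lay 62 bp before the start of Gm28653. The E-box CAGCTG, a form bound by myogenic factors, lay 15 bp after the start of Gm28653 and 41 bp after that of Malat1. Searched on both strands, the GC box was present in 17.6% of the 1583 distinct member start windows and in 18.6% of the windows of all 11011 long noncoding RNA starts of these chromosomes, against 45.9% of those of all 39600 protein-coding starts. TATAAA was present in 13.5%, 14.0% and 11.8%, and CAGCTG in 21.7%, 18.5% and 15.5%. These are matches of letters, not sites of binding. The set of all long noncoding RNA starts holds the member starts and also starts near coding starts, which the rule leaves out. Of the 9392 genes of the 5 types, 2161 have every start within 3500 bp of a coding start. In these 300 bp windows, member starts were not compared for these strings with starts that have no region. In the 50 bp before the start, a TATA box match was found at 1.42% of the 1905 member starts, counted once per region. It was found at 2.38% of 5622 long noncoding RNA starts with no region and at 1.41% of 12914 coding starts with a region.

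Several member genes carry microRNAs that muscle is known for. The mature forms below, credited to RefSeq (GRCm38.p6), have the seed (bases 2 to 8, which pair with targets) in capitals. Of 60 microRNA genes held by the 38 host genes searched, 47 were matched in RefSeq. Mir22hg holds the gene of the first of the next 3, and Gm28653 those of the others, known as muscle microRNAs.
miR-22-3p: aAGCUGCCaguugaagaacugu
miR-206-3p: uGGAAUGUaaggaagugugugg
miR-133b-3p: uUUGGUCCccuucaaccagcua
Dleu2 holds a pair with 1 shared seed, as does A330023F24Rik, whose miR-29 forms are known to target collagen messages.
miR-15a-5p: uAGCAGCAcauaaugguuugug
miR-16-5p: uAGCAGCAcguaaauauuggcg
miR-29b-3p: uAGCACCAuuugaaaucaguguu
miR-29c-3p: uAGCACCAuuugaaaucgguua
Genes of let-7 microRNAs lie in 6720427I07Rik, Lncppara, Mir99ahg and 3110039I08Rik (Mir100hg in RefSeq), and the forms shown for them share the let-7 seed. The seed shared by miR-100 and miR-99a, and that of miR-125b, belong to 3110039I08Rik and Mir99ahg.
let-7a-5p: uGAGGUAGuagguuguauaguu
let-7b-5p: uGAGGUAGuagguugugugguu
let-7c-5p: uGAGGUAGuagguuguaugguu
miR-100-5p: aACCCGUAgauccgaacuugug
miR-99a-5p: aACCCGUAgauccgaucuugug
miR-125b-5p: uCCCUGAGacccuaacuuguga
Dnm3os, a transcript antisense to an intron of Dnm3 and known from mesenchymal tissue, holds miR-199a and miR-214.
miR-199a-3p: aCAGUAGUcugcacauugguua
miR-214-3p: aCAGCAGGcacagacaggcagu

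Regions at long noncoding RNA starts had signal values above those of distal regions and below those of coding promoters in each list. The signal value is the authors' own measure of a peak, and what it is relative to is not given, so it was compared only within a list. In replicate 1 the median was 6.10 for regions at long noncoding RNA starts, 17.99 for coding promoters (regions within 1000 bp of a protein-coding start) and 4.67 for distal regions (more than 2500 bp from coding starts and more than 1000 bp from any other start). In replicate 2 the medians were 6.71, 23.5 and 4.70. In the replicated list they were 6.05 (quartiles 3.86 and 12.5), 22.1 (8.75 and 35.9) and 4.25 (3.29 and 6.44), over 1905, 14708 and 61592 regions. The members' median stood at percentile 62.0 of all regions. The quartiles of members and of distal regions overlap widely, so the classes differ as distributions and not region by region. Regions of 1 tissue share their libraries and are not replicates, so no p-value was computed between classes. The rule counts a region by its nearest edge, so wide regions, which tend to be strong, fall within reach of a start more easily. With distance taken from the summit instead, a check chosen after seeing the data, 1520 regions qualified and their median was 5.76, against 23.0 for coding promoters and 4.25 for distal regions.

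**Figure D1:**
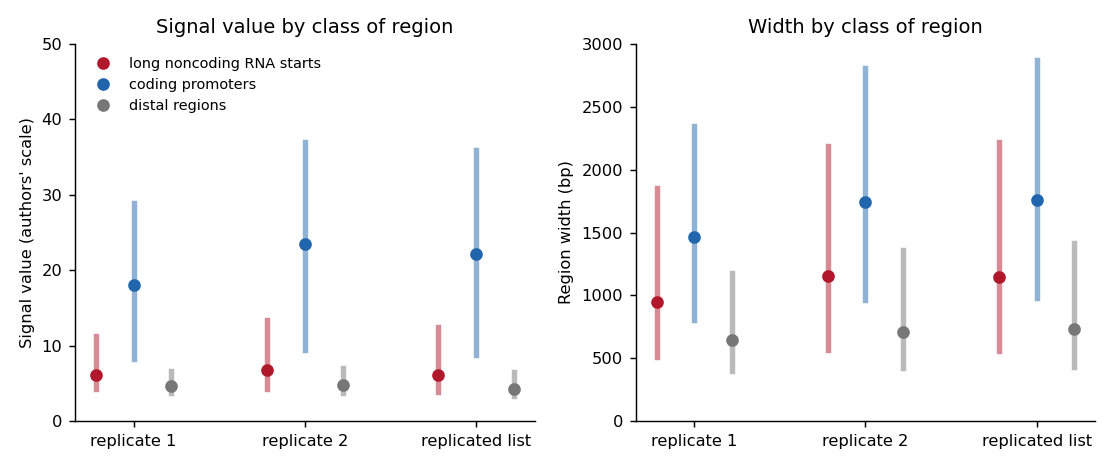
Median (points) and quartiles (bars) of the authors' signal value and of region width in bp for regions at long noncoding RNA starts, coding promoters and distal regions, in the lists of replicate 1, replicate 2 and both. In every list the members' medians lie between those of the other classes, at 6.10, 6.71 and 6.05 for signal.

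Widths followed the same order. The median width of members was 949 bp in replicate 1, 1156 bp in replicate 2 and 1148 bp in the replicated list (quartiles 560 and 2225 bp), where coding promoters had 1762 bp and distal regions 735 bp. Members covered 3.48 Mb, and 9.55% of them were 4000 bp or wider, against 14.5% of coding promoters and 3.46% of distal regions. The top 10% of signal values held 10.8% of members, close to the 10% of all regions that it holds by definition. It held 46.1% of coding promoters and 1.84% of distal regions. Of the 1000 highest values in the list, 20 were members, 942 were coding promoters and 28 were distal. Members made up 2.30% of all regions, so they were not clearly rarer among these 1000 than in the whole list. The median of coding promoters was exceeded by 242 members (12.7%), against 2.33% of distal regions.

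Most members were found in both replicates, and how often depended on their signal value in the same way as for other regions. A region counted as shared where at least 50% of the shorter of the 2 regions overlapped. Of the members, 1382 (72.5%) were shared with both replicate lists, against 63.2% of all regions, 90.5% of coding promoters and 57.0% of distal regions. Replicate 2, the longer list, held 88.1% and replicate 1 held 75.3%. A further 53 members were shared with replicate 1 alone, 297 with replicate 2 alone and 173 with neither. Among members in the lowest 10% of signal values 7.19% were shared with both, which rose to 61.5% in the fifth band of 10%, 98.7% in the seventh and 100% in the top pair. Distal regions had 6.81%, 64.3% and 97.4% in the same bands. The members absent from a list were thus mostly weak ones. The replicated list was made from the same libraries as the replicate lists, and 1801 members (94.5%) had identical bounds in the pooled list. Sharing and its rise with the signal value are therefore partly built in, and they are no independent test of reproducibility.

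**Figure D2:**
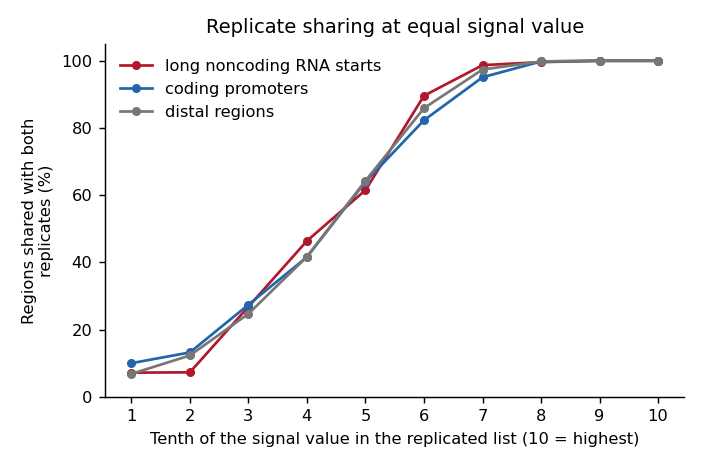
Percentage of regions shared with both replicates (y axis) in 10 bands of equal number by signal value of the replicated list (x axis, 10 highest). The 3 classes run close together, from 7.19% for members in the lowest band to 100% in the highest.

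About 1 in 5 long noncoding RNA genes that could have had such a region did have one. Of the 9392 genes of the 5 types, 7231 had a start more than 3500 bp from every coding start, and 1551 of these (21.4%) had a member region. Protein-coding genes had a region at a start in 12926 of 20807 cases (62.1%), where any region within 1000 bp of any start counted. With any region at an eligible start counted, member or not, 1609 long noncoding RNA genes (22.3%) had one. Coding genes also have more annotated starts, 39600 for 20807 genes against 11011 for 9392 long noncoding RNA genes, and this was not adjusted for. The share of eligible long noncoding RNA genes with a member region was 17.6% in replicate 1 and 21.4% in replicate 2, and 1225 genes (16.9%) had one in both. Coding genes had a region in 59.8% in replicate 1 and 62.0% in replicate 2. Among gene types, processed transcripts, a mixed class that includes host genes such as Mir22hg and Dleu2, had a region in 33.9% (150 of 443; 29.6% and 34.3% in the replicates). Antisense genes had one in 23.7% (432 of 1822; 20.1% and 24.1%), sense intronic genes in 23.3% (65 of 279; 16.1% and 23.7%) and lincRNA genes in 19.2% (900 of 4680; 15.6% and 18.8%). Only 7 bidirectional genes could be counted, of which 4 had a region. The order from processed transcripts to antisense to lincRNA genes was the same in both replicates, while sense intronic genes lay below antisense genes in replicate 1 and close to them in replicate 2.

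Host genes of small RNAs had a region more often than the background of 21.4%. Of 91 eligible genes that hold a microRNA gene on the same strand, 43 (47.3%) had a member region, 42.9% in replicate 1 and 46.2% in replicate 2. Of 55 that hold a small nucleolar RNA gene, 21 (38.2%) had one, 36.4% and 38.2% in the replicates. A gene counted if any of its eligible starts had a member region. Genes with 2 or more annotated transcripts had one more often, in 29.3% against 20.4% of those with 1 transcript. The part of this in the shares of host genes was not tested. Genes whose start lay over 100 kb from any coding start had one in 14.2% (346 of 2436), against 25.8% (685 of 2651) between 10 and 50 kb. In replicate 1 these were 11% and 21.7%, and in replicate 2 14.1% and 25.7%.

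The share also went with CG content, which the rule did not use. Taking each gene's start of highest CG ratio, 15.1% of 3167 genes with a ratio under 0.2 had a member region, 22.2% of 2557 from 0.2 to 0.4, 28.7% of 995 from 0.4 to 0.6, 35.8% of 321 from 0.6 to 0.8 and 56.1% of 187 at 0.8 or more. Both replicates rose through the same steps, from 11.9% to 54.5% in replicate 1 and from 15.2% to 56.1% in replicate 2. Even so, 478, 567 and 286 genes with a region fell in the 3 lowest classes. A gene with several starts can reach a higher class through any of them, and that start need not be the one with the region. Genes with 2 or more annotated transcripts also had a member region more often, in 29.3% against 20.4% of those with 1 transcript. The part of this in the rise was not tested.

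**Figure D3:**
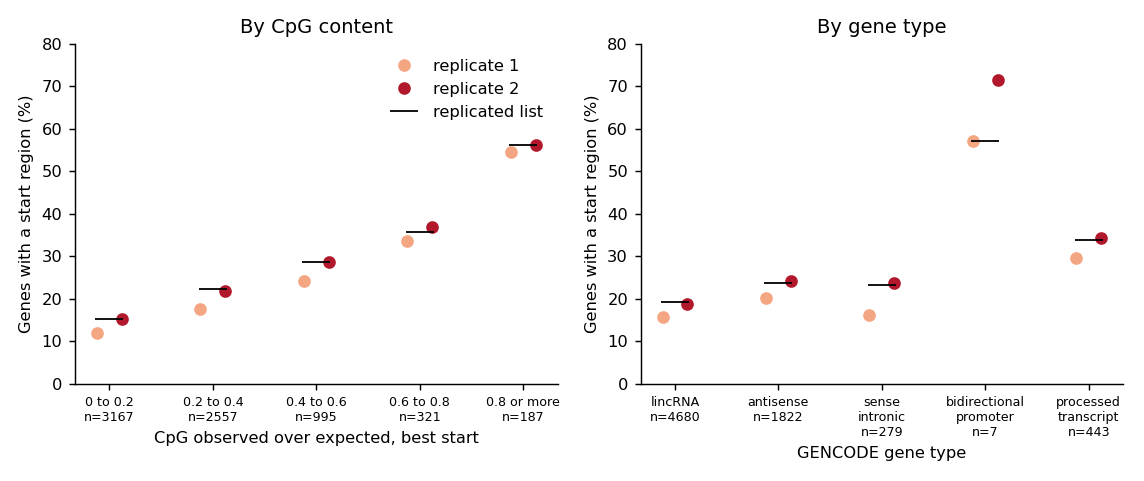
Percentage of eligible long noncoding RNA genes with a start region by CG content of the best start (left) and by gene type (right), in replicate 1, replicate 2 (points) and the replicated list (level ticks), with the number of genes under each. The percentage runs from 15.1% to 56.1% over the CG classes, and the bidirectional class has only 7 genes.

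At the level of regions, the median ratio of CG at member starts was 0.285, against 0.204 at 5618 long noncoding RNA starts with no region and 0.768 at 12913 coding starts with a region. A ratio of at least 0.6 was found at the starts of 245 members (12.9%), at 4.59% of starts with no region and at 71.5% of coding starts. A start with several member regions is counted once for each. With 1 start per gene, 201 of 1533 member starts (13.1%) reached this ratio. Repeats masked in the reference made up 14.7% of member start windows on average, 23.9% of those with no region and 8.002% of coding ones. The 245 CG-rich members had a median signal value of 13.0 (quartiles 5.87 and 29.1), against 5.64 (3.74 and 10.8) for the 1660 CG-poor members. They were shared with both replicates in 87.3% against 70.4%, and their summit lay within 500 bp of the start in 75.9% against 50.9%. Among those that overlapped a region in a replicate list, medians were 12.55 against 6.39 in replicate 1 and 15.2 against 7.38 in replicate 2. CG-rich starts were found at 3 of the 5 bidirectional members. They made up 27.8% among processed transcripts and less among lincRNA (12.4%), antisense (9.30%) and sense intronic genes (4.76%).

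Acetylation was centred less tightly on long noncoding RNA starts than on coding starts. The summit lay within 500 bp of the nearest start in 54.1% of members and in 84.2% of coding promoters. Its median position was 78 bp downstream for members and 127 bp for coding promoters, with 55.9% and 68.5% of summits downstream. The region covered the start itself in 1069 members (56.1%). These had a median signal value of 9.47 and were shared with both replicates in 88.5%, whereas the 836 that lay beside the start had 4.12, below the 4.25 of distal regions, and were shared in 52.2%. Members that covered the start were also wider, with a median of 1795 bp against 627.5 bp. A wide region covers a start more easily, and width and position were not separated. Close to the limits of the rule the values ran on without a step: 161 members in the last 200 bp inside the limit of 1000 bp from a start had a median of 4.12, and 161 regions in the next 200 bp outside it had 4.25. For the coding limit, 25 members 2500 to 3000 bp from a coding start had a median of 4.25 and 34 regions 2000 to 2500 bp away had 4.45.

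**Figure D4:**
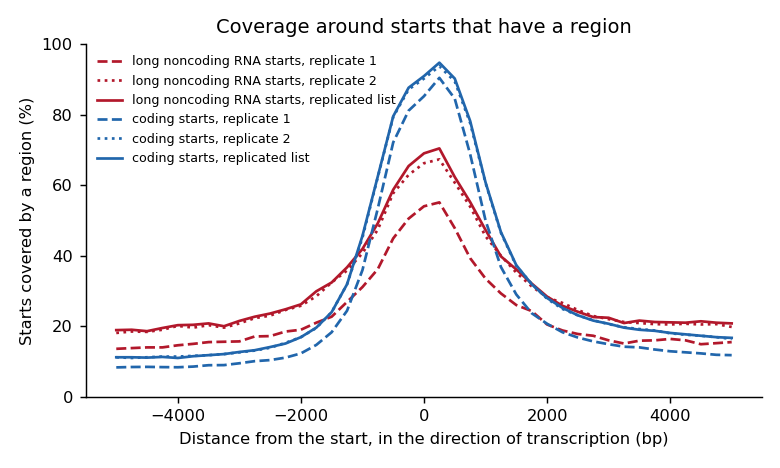
Percentage of starts covered by a region at each distance in bp from the start, in the direction of transcription, for 1583 long noncoding RNA starts and 12914 coding starts chosen for having a region nearby, in each list. Coverage at 250 bp downstream is 70.4% and 94.7% in the replicated list; at 5000 bp upstream it is 18.9% and 11.2%.

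The flanks also differed. At 5000 bp upstream 18.9% of member starts lay in a region, against 11.2% of coding starts, and at 5000 bp downstream 20.8% against 16.7%. The starts were chosen for having a region, so the height at the centre is set by the rule and is not a finding. Of the 2000 bp before the start, 899 bp on average were covered at member starts and of the 2000 bp after it 982 bp. At coding starts these were 1007 and 1251 bp. The excess of the downstream side was thus smaller at member starts, and it had the same sign in replicate 1 (674 and 731 bp) and replicate 2 (873 and 956 bp).

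Letter matches at the summits also differed between the classes. Within 250 bp of the summit, the GC box, bound by Sp factors, was present in 420 members (22%), 66.3% of coding promoters and 9.61% of distal regions. The ETS consensus CCGGAAG was present in 6.98%, 17% and 2.88%. The AP-1 consensus TGACTCA was present in 10.6%, 4.81% and 11.7%, and TATAAA in 20.5%, 9.0% and 25.2%, so for these motifs members resembled distal regions more than coding promoters. The MEF2 string CTAAAAATA was found in 2.05%, 0.612% and 1.98%, and the E-box CAGCTG in 33.8%, 26.3% and 31.6%, so for these strings members lay slightly above distal regions. Members were intermediate for every string searched except MEF2 and the E-box. CCAAT was present in 45.2%, 39.4% and 45.7%, and the CRE string TGACGTCA in 1.26%, 2.56% and 0.443%. The MCAT string CATTCC was present in 25.5% of members and 26.5% of distal regions, and the MEF3 string TCAGGTT in 7.82% and 8.08%. Coding promoters were lower for both. For CCAAT, MCAT and MEF3, members thus lay slightly below distal regions. CG-rich members held the GC box in 56.7% and CG-poor ones in 16.9%. All were searched on both strands, and base composition alone differs between the classes.

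Members mostly lay outside coding genes, at a median of 36229 bp from the nearest coding start (quartiles 14577 and 85783 bp). Of them, 1241 lay outside coding gene bodies (median signal value 6.44), 544 within a coding gene on the opposite strand (5.49) and 113 within one on the same strand (5.02). The nearest coding gene had a region at its own start for 84.0% of members, against 89.6% for distal regions. Of the 57 members with starts of 2 genes on opposite strands, the median was 10.2.

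The 20 members of highest signal value shared with both replicates had values of 50.6 to 67.8. Their values were 38.1 to 58.0 in replicate 1 and 43.2 to 63.1 in replicate 2, where a replicate's value is that of the strongest region that overlaps the member. Of these, 14 had CG-rich starts, 16 had the summit within 500 bp of the start and 18 lay outside coding genes. They comprised 11 lincRNA, 6 processed transcript and 3 antisense genes. Most are transcripts known by clone names, and their roles are not given here.

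Mir22hg, the host of miR-22, had the highest value of all members (chr11:75457751-75464075, within Tlcd2 on the same strand), 58.0 in replicate 1, 63.1 in replicate 2 and 67.8 in the replicated list. Malat1, a nuclear RNA of splicing speckles, came next (chr19:5792649-5809276), with 57.6, 62.2 and 66.0. 1810026B05Rik, which lies upstream of Chd2 and is known to restrain that gene, had 54.0, 61.5 and 64.6 (chr7:73551127-73560622). These 3 were high in both replicates, and far above the members' median. Dleu2, host of miR-15a and miR-16, had 52.3, 43.2 and 63.3 (chr14:61678643-61690258), the only member of the 20 with a lower value in replicate 2 than in replicate 1. Fbxl12os, a transcript named for its position opposite Fbxl12, followed with 52.2, 61.7 and 62.7 (chr9:20606840-20608262). C030034I22Rik, a lincRNA, had 51.2, 54.8 and 62.0.

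The next members lay between 53.7 and 60.9 in the replicated list. They were 2900060B14Rik (60.9, antisense in Clasp1), 2310015A10Rik (60.3, with Zfp36l1 as its nearest coding gene), Gm12974 (58.8), E130102H24Rik (57.1, host of miR-101a), D230017M19Rik (56.5), 1700031P21Rik (56.3), 2810405F17Rik (54.8), 1700113A16Rik (54.8), 1700096K18Rik (53.9) and 2310001H17Rik (53.7). The nearest coding gene of 1700113A16Rik was Mef2d, a muscle transcription factor, whose start lay 34033 bp away. Gm45605 (53.0), B230206L02Rik (52.5), Gm11205 (51.6) and Nctc1 (50.6) completed the 20. The lowest CG ratios among the 20 starts were those of 1700031P21Rik (0.211), B230206L02Rik (0.206) and Nctc1 (0.203), so high values also occurred at CG-poor starts. At B230206L02Rik the summit lay 4832 bp downstream of the start, so the strongest acetylation of that region was not at the start.

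**Figure D5:**
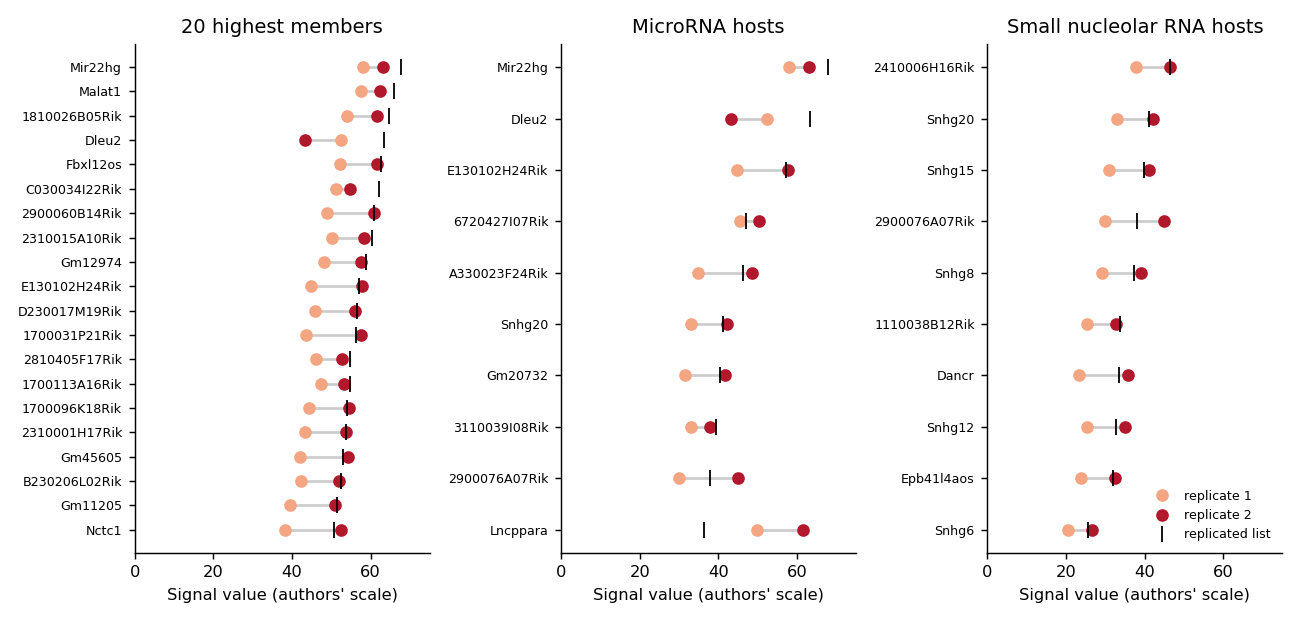
Signal value (authors' scale) of the 20 highest members, of the 10 highest microRNA hosts and of the 10 highest small nucleolar RNA hosts, in replicate 1 and replicate 2 (points joined by a line; strongest overlapping region) and in the replicated list (upright ticks). Replicate 2 has the higher value throughout except at Dleu2; scales of separate lists are not known to be equal.

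The widest members were of another kind. Lncppara, host of let-7b and let-7c-2, had a region of 34914 bp (chr15:85652176-85687089) and a value of 36.4, and it overlapped regions of up to 49.7 in replicate 1 and 61.5 in replicate 2. Its summit lay 16847 bp inside the gene. Neat1, the scaffold of paraspeckles, had 31702 bp (chr19:5821399-5853100) and values of 46.2, 54.5 and 45.7, with the summit 33 bp from the start. Gm16006, antisense in Zhx2, had 19442 bp and 24.3, and Gm47921, within Zmiz1 on the same strand, had 17008 bp and 25.8. Malat1 with 16628 bp was the fifth. Only Malat1 had a CG-rich start among these 5, and only Neat1 had its summit within 500 bp of the start.

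Hosts of microRNAs gave 56 member regions with a median signal value of 11.8, against 6.05 for all members, and 48 of them were shared with both replicates. The 10 highest regions belonged to Mir22hg, Dleu2, E130102H24Rik, 6720427I07Rik (let-7a-1, let-7f-1 and let-7d; 47.0), A330023F24Rik at 2 starts (46.3 and 42.6), Snhg20 (miR-6516; 41.2), Gm20732 (miR-30d; 40.5), 3110039I08Rik (39.5) and 2900076A07Rik (miR-1839; 38.0). Of 18 symbols in a list of muscle and microRNA hosts, 11 were matched in the annotation. Of these, 10 were away from coding starts and 9 had a member region, beside 21.4% of all eligible genes. The strongest regions of the 9 were all shared with both replicates and had a median of 30.7, and 1 of the 9 starts was CG-rich. Among the 9, Carmn and Dubr hold no microRNA gene in their annotated span. This list and those below were chosen with earlier results of these data known, so their shares are descriptions and no test.

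The 2 hosts of the myogenic microRNAs differed in level. Mir133a-1hg, which runs antisense in an intron of Mib1 and holds miR-133a-1 and miR-1a-2, had 26.0 in replicate 1, 33.5 in replicate 2 and 30.7 in the replicated list, over 10981 bp. It lies on chromosome 18, whose hosts were left out of the sequences above. Gm28653, host of miR-206 and miR-133b, whose 2 CG window is printed above, had 10.9, 13.4 and 13.3 in its strongest region (chr1:20670351-20673769), with the summit 1329 bp downstream. Gm28653 had 3 further member regions, of 7.52, 3.87 and 3.35. The weakest of these covered the start, and it was found in replicate 2 and not in replicate 1. All regions together covered 6695 of the 10000 bp around this start, and of the 4 member regions the one on the annotated start was the weakest.

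Other hosts with several starts had several regions. 3110039I08Rik had 5 member regions (39.5, 21.7, 16.9, 11.97 and 2.97), the most of any member gene, and all but the weakest were shared with both replicates. Mir99ahg, host of miR-99a, miR-125b-2 and let-7c-1, had 3 (32.9, 21.5 and 19.4). Mir17hg, host of the miR-17 to miR-92 cluster, had 19.9, 26.6 and 23.8, in a region that ended upstream of the start. Dubr, described in myoblast differentiation, had 16.1, 16.6 and 19.3. Mirt1 and Mirt2 of the same list had no region at a start.

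Hosts of small nucleolar RNAs, whose introns give the guides of ribosomal RNA modification, gave 22 member regions with a median signal value of 25.4, and 21 of these were shared with both replicates. CG-rich starts were found in 18 of the 22 and a summit within 500 bp of the start in 21. The highest was 2410006H16Rik, host of Snord49a, Snord49b and Snord65, with 37.9 in replicate 1, 46.3 in replicate 2 and 46.5 in the replicated list. Of 18 genes of the 5 types in a fixed list of such hosts, 17 had a region at a start. Only 11 lay away from coding starts and 10 of these were members, beside 21.4% of all eligible genes. The members were Snhg20 (41.2), Snhg15 (39.7), Snhg8 (37.4), Dancr (33.4 and 13.5 in 2 regions), Snhg12 (32.6), Epb41l4aos (31.8), Snhg6 (25.6), Snhg5 (25.5), 1810032O08Rik (Snhg16 in RefSeq; 24.9) and Snhg17 (12.7). All 10 had CG-rich starts and a summit within 500 bp of the start, as the CG content of the Snhg12 window printed above illustrates. The exception, Snhg14, is an imprinted host read in neurons and had no region.

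Of 13 widely expressed long noncoding RNAs in a list, 12 had a region at a start. Of the 11 away from coding starts 9 were members, beside 21.4% of all eligible genes. Besides Malat1, Neat1, Dleu2 and Dubr these were 1700020I14Rik (Oip5os1 in RefSeq, also called Cyrano; 37.2 in replicate 1, 44.9 in replicate 2 and 44.8 in the replicated list), Lockd downstream of Cdkn1b (36.9), Trp53cor1 (a target of p53; 24.2), Pvt1 beside Myc (18.98) and 2900097C17Rik (the mouse NORAD gene; 13.3 and 6.31 in 2 regions). The single gene with no region was Miat.

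Imprinted transcripts followed. Of 10 in the list 9 lay away from coding starts and 6 had a member region, beside 21.4% of all eligible genes. The strongest values of these 6 ran from 4.51 to 50.55, and Rian, Mirg, Nespas and Snhg14 had no region at a start. Nctc1, a noncoding transcript of the H19 locus known from muscle, had 38.1 in replicate 1, 52.4 in replicate 2 and 50.6 in the replicated list (chr7:142547880-142560687). Airn, which silences Igf2r on the paternal chromosome, had 29.8, 38.0 and 37.2. Kcnq1ot1, the antisense silencer of its cluster, had 15.6, 27.1 and 23.2, with a further region of 15.95. Peg13 had 13.2, 16.6 and 16.1.

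H19 and Meg3, maternally expressed, were lower than Nctc1. H19 had 2 member regions that ended on either side of its start, of 13.4 upstream (chr7:142578201-142579426) and 4.14 downstream (chr7:142576778-142578095). In replicate 2 a region of 14.3 overlapped both, whereas in replicate 1 the strongest regions they overlapped had 10.2 and 5.68. Meg3 had 2 weak ones, of 4.51 and 4.39, and the stronger was found in replicate 2 alone. The mice are hybrids of 2 strains, but the lists do not separate the parental chromosomes, so imprinting itself was not measured.

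Among transcripts of limb, vessel and connective tissue, 8 of 11 had a region at a start. Only 6 lay away from coding starts, of which 4 were members, beside 21.4% of all eligible genes. Members were Carmn, a transcript of smooth muscle whose annotated span holds no microRNA gene (18.3 in replicate 1, 24.6 in replicate 2 and 22.8 in the replicated list), Dnm3os (18.5, 24.6 and 22.1), Hotair of the HoxC cluster (7.75, 10.3 and 8.62) and Halr1 beside the HoxA cluster (6.42 and 2.58 in 2 regions). The endothelial and fibroblast markers above also had regions, and their part in these values was not tested.

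Of 5 transcripts placed in a heart list, 4 lay away from coding starts and 2 were members, Bvht and Myhas, beside 21.4% of all eligible genes. That count is too small to set against that share. The 4 heart markers had no region. Bvht, described in cardiac commitment, had 29.6 in replicate 1, 39.4 in replicate 2 and 38.3 in the replicated list, and it lies on chromosome 18, as Carmn does. Although placed in this list, Myhas is antisense in the fast myosin heavy chain cluster, with the skeletal muscle marker Myh4 as nearest coding gene. Its member region had only 4.77, while a region of 31.2 spanned another of its starts and came too near a coding start to qualify. Hand2os1 had a region at a start in the replicated list alone, which did not qualify. Mhrt and Gata6os, named 1010001N08Rik in the annotation, had no region at a start.

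Nervous system and immune transcripts made up the last lists. Of 12 nervous system transcripts of the 5 types, 0 had a region at a start in the replicated list. Only 7 lay away from coding starts and 0 of these were members, beside 21.4% of all eligible genes, a count too small to set against that share. Those without a region include Rmst, Pantr1, Dlx6os1 and the hosts of miR-124 and miR-9. Sox2ot had a region in replicate 2 alone. Of 6 immune transcripts, 5 had a region at a start, among them Ptgs2os with 10.94, which lay near a coding start. Of the 5 away from coding starts 4 were members, beside 21.4% of all eligible genes: Gm14005 (Morrbid in RefSeq; 13.9), Mir155hg (9.30), Ptgs2os2 (8.69) and Mir142hg (4.51). Mir142hg, a host transcript of blood cells, was found in replicate 2 and not in replicate 1, and all 4 leukocyte markers lacked a region.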

How the data were processed

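H3K27ac ChIP-seq was measured in 4 libraries of 1 group. Peak lists were used as deposited: 1 per biological replicate, 1 of both pooled and 1 of replicated peaks. Each region carries the authors' signal value (a signal of unstated scaling), −log10 p and −log10 q values and a summit offset, all made by the authors before deposit. The aligner, the peak caller and the depth were not given in the sources used here, so no counting interval can be had. Without reads, only the lists' overlap bears on the precision, and the replicated list shares its libraries with the replicate lists. Weak regions were the least often shared between replicates.

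Here, regions were assigned to starts of the GENCODE M21 basic set on mm10 (GRCm38) with Python 3.11.15, pandas 2.3.3 and numpy 2.4.6, counting edges. Scripts were tested on simulated regions. Genes named are the 20 highest members shared with both replicates, the 5 widest, members of 8 lists, and the 10 highest microRNA and small nucleolar RNA hosts. Members and lists were chosen with earlier results of these data known. Neighbouring coding genes are named for position only. Technical replicates were not analysed separately. Other radii, coding limits, thresholds, overlaps, windows and lists were tried.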

Additional observations from a re-analysis of the deposited data

Results flagged for a closer look

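Regions of chromosome X lie outside the rule, which covers chromosomes 1 to 19, and were looked at because they hold a signal in data that the comparisons above do not use. Of the 1456 regions of chromosome X in the replicated list, 29 met the same distances to long noncoding RNA and coding starts (25 in replicate 1 and 26 in replicate 2). Their median signal value was 9.78. The strongest, with 44.12, lay at Jpx, an activator of Xist, which had 34.1 in replicate 1 and 45.9 in replicate 2. Xist itself, the RNA that coats the inactive X chromosome in females, had 16.7 (12.8 and 17.9 in the replicates). Ftx, a further transcript of the X inactivation centre, had 22.1 (16.8 and 26.8), and Firre, which lies elsewhere on the chromosome, had 20.1 (15.2 and 17.6). Chromosome Y held 2 regions, the stronger of 6.57.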

How the results depend on the processing

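Of 98 values recomputed under other settings, 76 stayed close and 22 moved. Changes of direction were not scored. The members' median signal value lay between those of distal regions and coding promoters in 13 of 13 settings, the main one included. Counting only coding starts of transcripts typed protein-coding left its values as they were, and these are among the 76. The number of member regions ran from 1520 to 2661 and that of genes from 1274 to 1781, all within 1.5 times the values given. The percentile of the members' median, 61.99, became 66.78 with a radius of 500 bp and 57.16 with 2000 bp, and ran from 59.05 to 62.85 with 1 replicate left out. The share of members found in both replicates, 72.5%, became 76.5% and 68.5% with these radii, 56.7% where 50% of both regions had to overlap, and 70.2% with distance taken from the summit, a setting chosen after seeing the data. With 1 replicate left out, the number of members ran from 1623 to 1902 and that of genes from 1274 to 1544. The GC box share fell to 8.77% in windows of 100 bp on each side of the summit, which are shorter by construction. Also chosen after seeing the data, the comprehensive annotation gave 1894 members, and leaving out the 42 members near a curated RefSeq coding start gave 1863. With the comprehensive annotation the median of coding promoters fell from 22.13 to 16.45. The members' median over that of coding promoters moved from 0.2735 to 0.3644. This ratio also moved without replicate 2 (0.3392) and with a radius of 500 bp (0.3115). No paired analysis was possible because the samples form 1 group. With 2 replicates and no read depths, sampling error could not be separated from differences between the pools.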

Other observations

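Member regions were found on every chromosome from 1 to 19. The percentage of eligible long noncoding RNA genes with a member region was highest on chromosomes 17 (101 of 313, 32.3%) and 11 (102 of 343, 29.7%) and lowest on chromosome 14 (52 of 358, 14.5%). Genes with 2 or more annotated transcripts had a member region in 29.3% (254 of 866), against 20.4% (1297 of 6365) of those with 1 transcript. In replicate 1 these were 25.6% and 16.5%, and in replicate 2 28.5% and 20.4%. Genes with 1 exon, 2 exons and 3 or more exons had one in 18.9%, 22.9% and 20.8%.

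Annotations differed on some members. Of the 1007 members matched to a RefSeq gene, 26 lay at genes that RefSeq types as protein-coding, and 37 members lay within 1000 bp of a curated RefSeq coding start. The median signal value of the 42 members within 2500 bp of such a start was 9.78, against 6.05 for the others.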
